A study of Mus musculus with 26 samples.

Results

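The genes described here are 34 genes of DNA replication and S phase, read in haematopoietic stem and progenitor cells of mice with chronic myeloid leukaemia (CML). They were chosen by symbol, as genes known for a part in DNA replication or S phase. The rule itself uses no measured value, but the list was chosen with earlier results of these data known. All 34 were found among the 24091 genes of the count table, and all 34 were among the 13379 genes that passed the filter on low counts. They cover origin licensing (Orc1, Cdc6, Cdt1), the MCM2-7 helicase (Mcm2 to Mcm7), and helicase activation and fork protection (Cdc7, Cdc45, Gins1, Gins2, Mcm10, Tipin, Clspn). Further members serve DNA synthesis (Pola1, Pole, Prim1, Pcna, Rfc2, Rfc4, Fen1, Lig1), nucleotide supply and uracil removal (Rrm1, Rrm2, Tyms, Ung), and chromatin and histone supply (Chaf1a, Chaf1b, Slbp, Uhrf1). The last pair, E2f1 and E2f8, are transcription factors of the E2F family.

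RNA came from sorted bone marrow cells without lineage markers and with Sca-1 and c-Kit (LSK cells), the fraction that holds stem cells and multipotent progenitors. All samples came from the C57BL/6 background and carried SCLtTA/BCR-ABL, in which an Scl enhancer drives the transactivator that switches on BCR-ABL, so leukaemia is present in controls and knockouts alike. The groups differed in Spred1, whose protein sits at the membrane and restrains the RAS-ERK pathway. Global KO (6 libraries) lacked Spred1 in all tissues, and Spred1 wt (5 libraries) was its control. HSC KO and HSC wt (5 libraries each) carried Mx1-cre with the Spred1 deletion or the wild-type alleles. Both received 7 doses of poly(I:C), 250 µg each, at intervals of 2 days. Mx1-cre responds to interferon and is not limited to haematopoietic stem cells. EC KO (5 libraries) carried the deletion in the cells the labels abbreviate as EC, with a Cre driver that the labels do not name. Its own control, EC wt, was not analysed here, and Spred1 wt stood in for it. The labels do not give poly(I:C) treatment for Spred1 wt, global KO or EC KO, nor the age of the animals.

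Before S phase, the origin recognition complex, CDC6 and CDT1 load the MCM2-7 ring onto DNA, a step called licensing. The kinase CDC7 and the factors CDC45 and GINS then turn the ring into an active helicase, and primase, polymerases, the sliding clamp PCNA and its loader RFC copy both strands behind it. Most of the genes for these proteins are targets of E2F factors and are transcribed in waves at the border of G1 and S phase. Quiescent haematopoietic stem cells hold little of them, while cycling progenitors hold much more.

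The promoters of 4 members are printed because Mcm6, Slbp and Tyms rose in EC KO with and without an E2F motif, while Mcm5, a helicase partner of Mcm6 with the motif, did not pass. Each is the 160 bases before the gene's start, 5′ to 3′ on the gene's strand, from RefSeq on GRCm38.p6, the same assembly as the mm10 build of the count table. Capitals mark matches to an E2F motif (TTTCCCGC, TTTCGCGC, TTTGCCGC or TTTGGCGC, either strand, overlapping matches included) and to the CCAAT box (CCAAT, or ATTGG for the other strand). The windows lie at chr8:75109349-75109508 (Mcm5, plus strand), chr1:128359706-128359865 (Mcm6, minus), chr5:33652575-33652734 (Slbp, minus) and chr5:30073626-30073785 (Tyms, minus). The Slbp window lies inside an exon of Gm10459, an antisense gene, and the other 3 windows overlap no annotated exon.
Mcm5: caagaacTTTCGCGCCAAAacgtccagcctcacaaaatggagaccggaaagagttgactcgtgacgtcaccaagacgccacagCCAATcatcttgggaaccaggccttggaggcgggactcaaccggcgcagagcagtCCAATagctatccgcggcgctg
Mcm6: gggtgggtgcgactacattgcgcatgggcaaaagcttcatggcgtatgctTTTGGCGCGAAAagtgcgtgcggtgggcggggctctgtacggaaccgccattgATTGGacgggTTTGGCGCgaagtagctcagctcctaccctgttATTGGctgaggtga
Slbp: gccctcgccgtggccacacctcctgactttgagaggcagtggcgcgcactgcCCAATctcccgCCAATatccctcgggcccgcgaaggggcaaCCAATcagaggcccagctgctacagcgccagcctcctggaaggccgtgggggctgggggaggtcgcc
Tyms: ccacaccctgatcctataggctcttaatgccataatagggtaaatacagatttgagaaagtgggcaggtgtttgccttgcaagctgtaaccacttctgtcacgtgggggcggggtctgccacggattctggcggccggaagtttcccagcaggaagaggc
Mcm5 has 2 overlapping E2F matches, one on each strand. Mcm6 has 3, of which 2 overlap. Slbp has none but holds 3 CCAAT boxes, and Tyms has no match to either motif in this window. Among the 28 members with a promoter in the RefSeq table, 9 (32.1%) held an E2F match in the window of 300 bases from 250 before to 50 after the start. The same letters were found in 2.87% of 17453 promoters of genes in the count table. The 9 were Mcm3, Mcm5, Mcm6, Mcm7, Cdc6, Cdt1, Pola1, Orc1 and Clspn. CCAAT stood in 64.3% of the members' windows and in 38.8% of all windows. The cell cycle homology element (TTTGAA or TTCGAA, either strand), a mark of genes transcribed in G2 and mitosis, stood in 17.9% against 17.3%. For the 21 G2 and mitosis genes with a window, the shares were 4.76% for E2F, 81.0% for CCAAT and 76.2% for the cell cycle homology element. A match describes letters in a window and not a bound site.

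Total counts per library lay between 14816100 and 26714300, and a member had between 355 and 17103 counts in a library. Levels are CPM, read counts divided by the library size after TMM scaling. Spred1 itself stood at 114 ± 20.7 CPM in Spred1 wt and 32.7 ± 7.36 in global KO (mean ± SD, n = 5 and 6). It stood at 104 ± 4.90 CPM in HSC wt, 35.4 ± 7.29 in HSC KO and 70.4 ± 11.4 in EC KO (n = 5 each). The LSK markers Kit and Ly6a (the gene for Sca-1) were present in every library, Kit at 344 CPM or more and Ly6a at 41.0 CPM or more. Xist marked 2 HSC wt, 3 HSC KO and 2 EC KO libraries as female, and the other 19 libraries held Y-linked transcripts. The labels do not say whether a library came from 1 mouse or a pool, so p-values measure the spread between libraries.

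Per length of gene, the members spanned a wide range of levels. Pcna, the sliding clamp, was highest at 227 CPM per kb over the 26 libraries, followed by Mcm7 (170), Mcm6 (138), Mcm3 (138), Rfc2 (118), Rrm1 (113), Mcm5 (99.7) and Mcm2 (89.7). At the low end stood Mcm10 at 14.05 and Orc1 at 8.47 CPM per kb. In 32 of 33 pairs of neighbours in this order the ranges over the libraries overlapped, and only Orc1 lay apart from its neighbour, below the lowest Mcm10 library. The 6 MCM genes, whose proteins form a ring with 1 copy of each, ranged from 78.1 (Mcm4) to 170 (Mcm7) CPM per kb. Within groups the members varied about as much as other genes of like level. Their median coefficient of variation was 9.89%, against 9.97% for all genes tested at or above the level of the lowest member. Rrm2, the regulated subunit of ribonucleotide reductase, varied most (18.5%), and E2f1 and Clspn least (6.67% each).

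**Figure D1:**
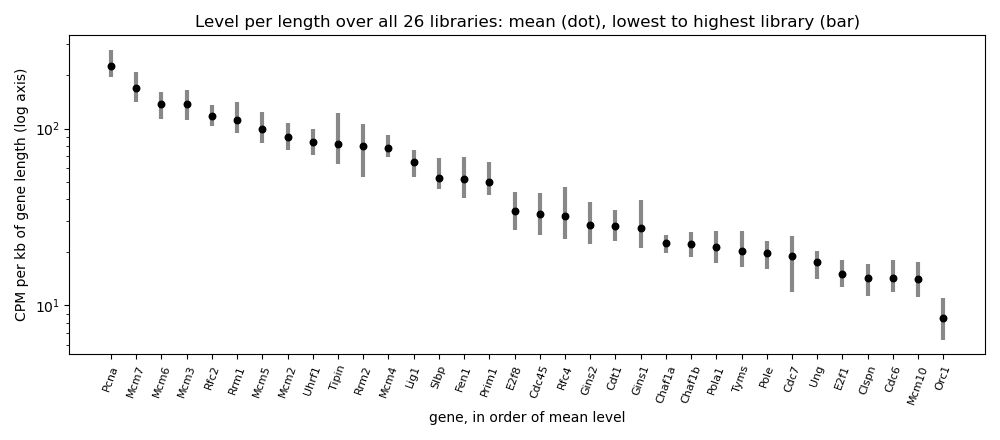
Level of each of the 34 genes in CPM per kb of gene length (log axis), with the dot at the mean of all 26 libraries and the bar from the lowest to the highest library. Levels fall from 227 for Pcna to 8.47 for Orc1, and the bars of neighbours overlap in 32 of 33 pairs.

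EC KO was the one pairwise comparison in which members passed the test, and 6 rose. They were Tipin, a fork protection factor; Slbp, which binds the stem-loop of histone mRNA; Prim1, the catalytic subunit of primase; Tyms, thymidylate synthase; Mcm6, a helicase subunit; and Gins1, a GINS subunit. They rose 1.19-fold to 1.36-fold against Spred1 wt, by edgeR's quasi-likelihood test with adjustment over all genes. Levels lay above those of Spred1 wt in 33 of 34 members, Pole being the exception (log2 difference -0.05), and the median log2 difference was 0.18 (0.11, with 30 of 34 higher, without EC KO 2). Over all genes tested, 467 rose (3.49%), 1065 passed in either direction (7.96%), 53.5% lay above 0 and the median was 0.02. A further 9 members had an unadjusted p under 0.05, so that 15 of 34 did, against 25.1% of all genes. The closest misses were Fen1 (log2 difference 0.31, edgeR adjusted p = 0.0521), Mcm4 (0.20, 0.0556), Rfc4 (0.32, 0.0715) and Cdc7 (0.37, 0.0754).

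This comparison rests on few libraries and on the estimate of spread shared by all 5 groups. A fit of EC KO and Spred1 wt alone called 0 members, with edgeR adjusted p from 0.0518 (Tipin) to 0.159 (Mcm6) for the same 6 genes at log2 differences of 0.23 to 0.42. With a sex covariate 3 rose (Tipin, Slbp and Prim1). The count was 2 without EC KO 3, 3 without EC KO 4 or Spred1 wt 5, and 10 without EC KO 5. Calls over all genes moved too, from 1065 to 333 in the fit of EC KO and Spred1 wt alone and 636 with a sex covariate. They were 483 without EC KO 3 and 1880 without EC KO 5. Gins1 lost its call in 8 of 10 fits that left out 1 library. Against HSC wt in place of Spred1 wt, 5 members rose (the same without Mcm6, at 0.17 with edgeR adjusted p = 0.105), where 5.24% of all genes rose and the members' median was 0.12 against 0.03 for all genes. Since EC wt was not analysed, the knockout, its genetic cross and any difference in handling cannot be told apart.

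Other features of the EC KO libraries moved with this result. Gene length was one: over all genes tested, the log2 difference fell with length (Spearman's rho = -0.31 across genes, which are not independent), with a median of 0.08 for genes up to 3.37 kb and -0.04 for longer ones. Among the members rho was -0.46, and the 17 shorter members had a median of 0.21 and the 17 longer ones 0.17. In HSC wt against Spred1 wt, rho over all genes was 0.15, and 0.39 among the members. Of 11 mast cell and basophil markers 8 were lower, and their summed level was 2187 to 5330.1 CPM in EC KO against 2912 to 16802 in Spred1 wt. Mcpt4, a mast cell protease, fell from 265 ± 125 to 19.8 ± 25.7 CPM (n = 5 each; edgeR's adjusted p was 0.013). Of 8 macrophage markers tested 7 were higher without any passing, with sums of 47.5 to 245 against 61.4 to 223 CPM, and Marco was at 0 in 16 of the 26 libraries. Of 15 LSK and stem cell markers 11 were lower, with sums of 2134 to 3006 against 2011 to 3238 CPM, and the log2 difference of Kit was -0.85, a fall (edgeR adjusted p = 0.00447). All 9 erythroid markers tested were higher, with sums of 33.4 to 171 against 22.9 to 65.9 CPM and 0 called. Of 9 mature neutrophil markers 6 were higher, with sums of 158 to 772 against 37.8 to 802 CPM and 0 called, and Ly6g was at 0 in 5 of the 26 libraries. In bulk RNA, fewer cells of a type and less RNA per cell cannot be told apart. With the mean of a marker list as a covariate, alternatives added after the data were seen, 13 members rose with mast cell markers (median log2 difference 0.26), 7 with macrophage markers (0.21) and 6 with LSK and stem cell markers (0.13). In the last fit Cdc7 passed and Gins1 did not. Calls over all genes, in either direction, also went up. They went from 1065 to 2581 with mast cell markers and to 1717 with LSK and stem cell markers. The count over all genes with macrophage markers is not given here. Of 5 myeloid progenitor markers 4 were higher (median log2 difference 0.28, 0 called). The part of length and of the erythroid, neutrophil and myeloid progenitor markers was not tested.

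**Figure D2:**
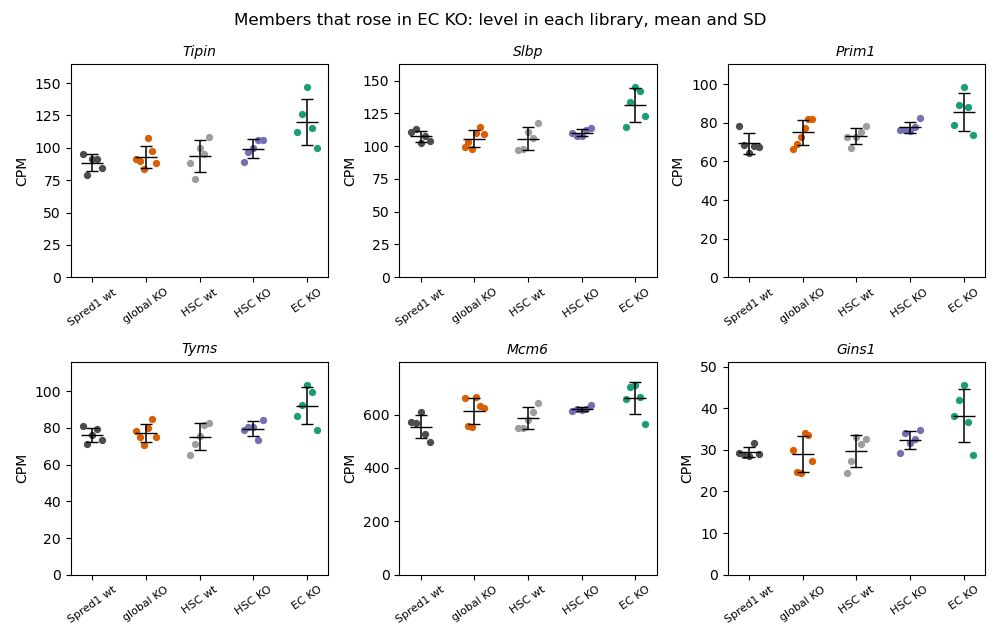
CPM of the 6 members that rose in EC KO, 1 point per library, with the group mean and SD as bars (n = 6 in global KO, 5 in the other groups). All 5 EC KO libraries lie above all Spred1 wt libraries for Tipin and Slbp, and 4 of 5 do for the other 4 genes, with EC KO 5 the one that overlaps.

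In global KO against Spred1 wt, no member rose or fell. Levels lay above those of Spred1 wt in 28 of 34 members, with a median log2 difference of 0.07, where 54.5% of all genes lay above 0 with a median of 0.01. The members' median was 0.04 without Spred1 wt 5 (28 of 34 higher) or without global KO 4 (26 of 34). By edgeR's test 10 genes passed in all (0.0747%), and 740 (5.53%) had an unadjusted p under 0.05. Mcm6 was the 1 member of 34 with an unadjusted p under 0.05 (log2 difference 0.15, SE 0.066, edgeR adjusted p = 0.877). Ung, the glycosylase that removes uracil from DNA (0.15, 0.915), and Prim1 (0.11, 0.917) had the next smallest p, and Cdc7 the largest difference (0.15, 0.971). The 95% intervals of the 34 differences reached up to 0.41 (Cdc7) and down to -0.41 (Rrm2). DESeq2 called 35 genes in this comparison, and no member among them. All 9 mature neutrophil markers lay lower in global KO (median log2 difference -2.37, 0 called, 7 with an unadjusted p under 0.05), with sums of 16.3 to 191 CPM against 37.8 to 802, and their part was not tested. Of 11 mast cell and basophil markers 9 lay lower (median -0.90, 0 called), with sums of 1780.03 to 13937.5 CPM against 2912 to 16802, and with these markers as a covariate the members' median was 0.10. Of 8 macrophage markers tested 7 lay higher (median 0.94, 0 called), and with these as a covariate the members' median was 0.09. All 5 myeloid progenitor markers lay lower (median -0.29, 0 called), and their part was not tested.

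HSC KO against HSC wt also gave 0 called members. Levels were above HSC wt in 31 of 34 members, with a median log2 difference of 0.09, against 56.9% and 0.02 for all genes. Of all genes 3 passed edgeR's test (0.0224%), all of them falling, and 289 (2.16%) had an unadjusted p under 0.05. The 1 member at that level was E2f8, a repressor among the E2F factors (log2 difference 0.21, SE 0.084, edgeR adjusted p = 0.999). E2f1 (0.13), Mcm10 (0.19) and Gins2 (0.16) followed, each with edgeR adjusted p = 0.999. DESeq2 called 5 genes and 0 members. LSK and stem cell markers moved with this comparison, 13 of 15 lying lower with a median of -0.28 and 0 called, and summed levels of 2298 to 2856 CPM in HSC KO against 2442 to 3531 in HSC wt. With these markers as a covariate the members' median was 0.03, 22 of 34 lay higher and Mcm10 stood at 0.07, with 0 members called. The median was 0.05 without HSC wt 1 or without HSC wt 2. All 9 erythroid markers lay higher (median 1.63, 0 called, 6 with an unadjusted p under 0.05), with sums of 15.2 to 258 CPM against 17.6 to 24.3. All 4 plasma cell markers lay higher (median 1.25, 0 called), with sums of 28.1 to 872 CPM against 55.2 to 125. HSC KO 1 held the highest sum of both lists, and the other 4 HSC KO libraries reached 31.4 and 127 CPM. Without HSC KO 1 the members' median was 0.11, with 33 of 34 higher. All 9 mature neutrophil markers lay lower (median -0.89, 0 called), with sums of 59.3 to 569 CPM against 128 to 843. All 5 myeloid progenitor markers lay higher (median 0.24, 0 called). The part of the erythroid, plasma cell, neutrophil and myeloid progenitor markers was otherwise not tested. Of 8 macrophage markers tested 7 lay higher (median 0.85, 0 called), and with these as a covariate the members' median was 0.09.

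**Figure D3:**
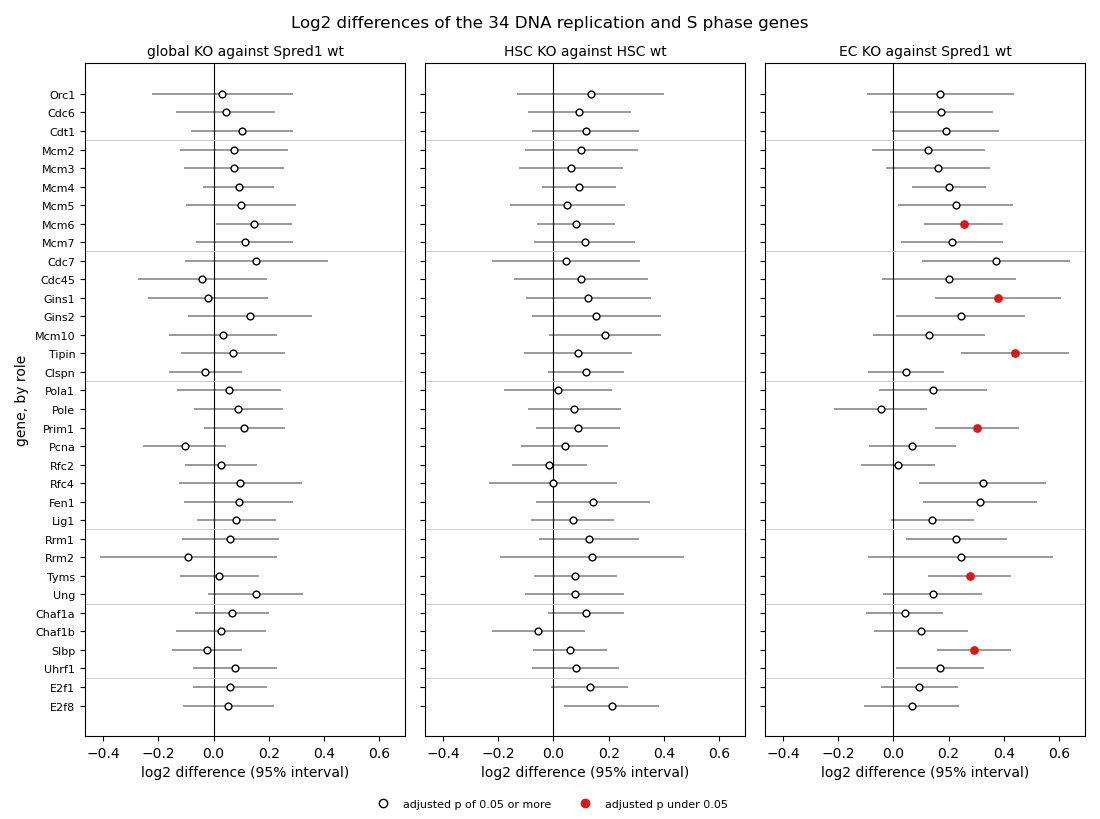
Fitted log2 difference of each of the 34 genes in global KO, HSC KO and EC KO against its control, with the 95% interval as a line and genes grouped by role between grey lines. Filled points (6, all in EC KO) have an adjusted p under 0.05, and the other points are open.

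The 2 control groups showed how far members differ between controls. They differ by cross, and only HSC wt is labelled with poly(I:C). HSC wt lay above Spred1 wt in 29 of 34 members, with a median log2 difference of 0.05 (47.9% and -0.01 for all genes). The median was 0.003 (19 of 34 higher) without HSC wt 5, 0.03 without HSC wt 4, 0.08 without Spred1 wt 3, 0.09 without HSC wt 1 and 0.01 (21 of 34) with a sex covariate. In this comparison 0 members had an unadjusted p under 0.05 (6.35% of all genes). By edgeR's test 4 genes passed in all (0.0299%). Clspn (0.11, edgeR adjusted p = 0.819), Ung (0.13, 0.861) and Mcm4 (0.09, 0.867) had the smallest p. The global KO and HSC KO effects were then compared as an interaction over 4 groups. The effect in global KO exceeded that in HSC KO in 12 of 34 members (47.8% of all genes), with a median difference of effects of -0.02 (-0.07 to 0.02 when 1 library was left out, so that its sign was not settled), and 0 members passed or had an unadjusted p under 0.05, where 2.14% of all genes had one and 2 genes passed in all (0.0149%). Clspn (-0.15), Pcna (-0.14) and E2f8 (-0.16) had the smallest p (edgeR adjusted p = 1 for each), and Rrm2 the largest difference (-0.23, 95% interval -0.69 to 0.23). Global KO, EC KO and HSC wt share the Spred1 wt libraries in these comparisons, so that they are not independent of each other. Tested for any difference among the 5 groups, 4 members passed, Slbp (edgeR adjusted p = 0.00566), Tipin (0.0168), Tyms (0.0337) and Clspn (0.0485), beside 8.45% of all genes. That count was 1 without EC KO 3 and 7 without EC KO 5. It was 2 without Spred1 wt 5, HSC wt 3, HSC KO 3, HSC KO 5, EC KO 2 or EC KO 4. Calls over all genes, 1131 with every library, ran from 579 (without EC KO 4) to 1456 (without EC KO 5). Of 26 fits without 1 library, Slbp kept its call in 26, Tipin in 24, Tyms in 17 and Clspn in only 6. Under 9 other settings, Slbp and Tipin kept theirs in 9, Tyms in 5 and Clspn in 2.

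Licensing genes showed no called difference, and all 3 lay above their control in each knockout group. Cdc6, the loading ATPase, held 61.3, 64.5, 70.3, 70.6 and 65.5 CPM in the 5 Spred1 wt libraries and 66.2, 88.6, 82.2, 72.2 and 65.4 in the 5 EC KO libraries. Cdc6 ranged from 58.4 to 76.9 (median 67.96) in global KO and stood at 59.1, 58.3, 76.1, 71.7 and 76.5 in HSC wt and 69.2, 76.7, 70.1, 72.4 and 76.7 in HSC KO. EC KO 2, 3 and 4 lay above every Spred1 wt library, while HSC wt 1 and 2 lay below every HSC KO library. Cdt1, the partner of CDC6 that geminin blocks, held 85.9, 89.2, 96.4, 88.7 and 79.1 CPM in Spred1 wt and 103, 119, 97.1, 90.7 and 91.04 in EC KO. Cdt1 ranged from 79.3 to 110.4 (median 93.1) in global KO and stood at 86.97, 84.4, 98.8, 98.5 and 107 in HSC wt and 86.9, 103, 106, 110.4 and 109.5 in HSC KO. The groups overlapped in each comparison. The log2 differences in EC KO were 0.17 for Cdc6, 0.19 for Cdt1 and 0.17 for Orc1, the largest subunit of the origin recognition complex (edgeR adjusted p = 0.235, 0.209 and 0.427).

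All 6 subunits of the MCM2-7 helicase stood higher in each knockout group than in its control, and Mcm6 in EC KO was the only one called. All 6 also stood higher in HSC wt than in Spred1 wt, with a median log2 difference of 0.05, beside 0.09 in global KO, 0.09 in HSC KO and 0.21 in EC KO. Mcm2 held 256, 271, 347, 296 and 254 CPM in Spred1 wt and 319, 362, 337, 284 and 254 in EC KO. Mcm2 ranged from 255 to 354 (median 291) in global KO, with 269, 272, 289.9, 310.2 and 327 in HSC wt and 290.4, 325, 316, 318 and 324 in HSC KO. Spred1 wt 3 stood as high as most EC KO libraries, and EC KO 5 as low as the lowest control. Mcm3 held 342, 363, 449, 370.4 and 340.1 CPM in Spred1 wt and 425, 472, 441, 392 and 357 in EC KO. Mcm3 ranged from 320.00 to 460.5 (median 393) in global KO, with 344, 368, 387, 407 and 425 in HSC wt and 358, 421, 409, 413 and 421 in HSC KO. The same libraries, Spred1 wt 3 and EC KO 2, were the highest of their groups for both genes. Mcm5 held 320.4, 312, 384, 323 and 289 CPM in Spred1 wt and 376, 436, 411, 369 and 314 in EC KO. Mcm5 ranged from 296 to 425 (median 345) in global KO, with 289, 303, 349.8, 366 and 385 in HSC wt and 314, 348, 354, 356 and 381 in HSC KO. Its promoter, printed above, holds 2 of the E2F matches, and its EC KO difference of 0.23 did not pass (edgeR adjusted p = 0.161).

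Mcm4, Mcm6 and Mcm7 form the part of the ring that has helicase activity by itself. Mcm4 held 262, 264, 258, 252 and 252 CPM in Spred1 wt and 285, 329, 321, 292 and 254 in EC KO. Mcm4 ranged from 246 to 305 (median 275) in global KO, with 257, 255, 283, 283 and 296 in HSC wt and 277, 302, 296, 291 and 299 in HSC KO. The Spred1 wt libraries lay close together (SD 5.61 CPM), and 4 of 5 EC KO and 4 of 6 global KO libraries lay above all of them. Mcm6 (chromosome 1, 128331575 to 128359705) held 573, 567, 611, 526 and 498 CPM in Spred1 wt and 660.1, 705, 712, 666 and 566 in EC KO. Mcm6 ranged from 552 to 664 (median 627) in global KO, with 551, 550.1, 578, 611 and 644 in HSC wt and 613, 623, 616, 620.01 and 634 in HSC KO. It rose in EC KO by a log2 difference of 0.25 (SE 0.069, edgeR adjusted p = 0.0243), with EC KO 5 inside the control range, and lost the call without any of 5 single libraries. Mcm7, whose introns hold the genes of miR-25, miR-93 and miR-106b, held 367, 385, 442, 337 and 349.5 CPM in Spred1 wt and 445, 492, 449, 406 and 386 in EC KO. Mcm7 ranged from 355 to 497 (median 401) in global KO, with 358, 362, 391, 394 and 425 in HSC wt and 381, 414, 403, 439.5 and 449.6 in HSC KO. The 3 EC KO libraries above all controls were EC KO 1, 2 and 3, and its difference of 0.21 did not pass (edgeR adjusted p = 0.134).

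Among the 7 genes of helicase activation and fork protection all lay higher in EC KO, and Tipin and Gins1 rose. Tipin (chromosome 9, 64281607 to 64304792) held 95.6, 79.3, 91.2, 91.6 and 84.7 CPM in Spred1 wt and 112, 126, 147, 115 and 100.03 in EC KO. Tipin ranged from 83.3 to 107 (median 90.5) in global KO, with 88.2, 75.8, 99.8, 94.9 and 109 in HSC wt and 88.7, 96.7, 99.8, 106 and 106 in HSC KO. The EC KO and Spred1 wt libraries did not overlap, which held for 2.29% of all genes, and the rise of 0.44 (SE 0.095, edgeR adjusted p = 0.00561) was the largest of the members. Gins1 (chromosome 2, 150909594 to 150931280) held 29.2, 28.8, 28.5, 31.6 and 29.1 CPM in Spred1 wt and 38.1, 42.02, 45.7, 36.6 and 28.7 in EC KO. Gins1 ranged from 24.4 to 34.1 (median 28.7) in global KO, with 24.4, 27.2, 32.99, 31.5 and 32.6 in HSC wt and 29.2, 34.1, 31.7, 32.7 and 34.7 in HSC KO. It rose in EC KO by 0.38 (SE 0.110, edgeR adjusted p = 0.0346), though EC KO 5 stood inside the control range. Clspn, the adaptor that links the fork to the checkpoint kinase CHK1, held 96.6, 98.8, 92.6, 88.1 and 96.1 CPM in Spred1 wt and 91.8, 110.02, 101, 94.4 and 90.4 in EC KO. Clspn ranged from 78.3 to 105 (median 91.2) in global KO, with 96.5, 94.1, 108, 106 and 106 in HSC wt and 109, 107, 108, 109.8 and 118 in HSC KO. All 5 HSC KO libraries lay above all Spred1 wt and all EC KO libraries but EC KO 2, and 4 of 5 lay above all HSC wt libraries. Cdc7 (0.37), Gins2 (0.24), Cdc45 (0.20) and Mcm10 (0.13) differed in EC KO without passing (edgeR adjusted p = 0.0754, 0.178, 0.291 and 0.432). Gins2 overlaps the antisense gene Gse1 by 118 bases, and the strand setting of the counting is not given in the sources used here.

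Of the 8 genes of polymerases, clamp and lagging strand, 7 lay higher in EC KO and Prim1 rose. Prim1 (chromosome 10, 128015215 to 128030030) held 78.6, 68.7, 64.4, 68.2 and 67.5 CPM in Spred1 wt and 78.8, 89.5, 98.6, 88.3 and 73.5 in EC KO. Prim1 ranged from 66.6 to 82.3 (median 75.1) in global KO, with 72.6, 67.1, 72.6, 75.2 and 78.3 in HSC wt and 76.2, 76.5, 75.6, 78.01 and 82.4 in HSC KO. Its rise in EC KO was 0.30 (SE 0.074, edgeR adjusted p = 0.0124), with EC KO 5 below the highest control, and it was lost without EC KO 3 (0.0569). Pcna held 257, 299, 280.04, 307 and 264 CPM in Spred1 wt and 272, 309, 349.8, 298 and 246 in EC KO. Pcna ranged from 244 to 285 (median 258) in global KO, with 261, 277, 289, 302 and 325 in HSC wt and 285, 306, 300.2, 297 and 307 in HSC KO. The clamp was thus among the members closest to their controls in EC KO (0.07, edgeR adjusted p = 0.606), and 3 of 6 global KO libraries lay below all Spred1 wt libraries (-0.10, edgeR adjusted p = 0.944). Pcna lies on chromosome 2, as do Spred1, Mcm10, Gins1 and E2f1. The flap endonuclease gene Fen1 (0.31) and the clamp loader gene Rfc4 (0.32) had 4 of 5 EC KO libraries above all controls. The clamp loader gene Rfc2 (0.02), the catalytic subunit genes Pola1 (0.14) and Pole (-0.05) and the ligase gene Lig1 (0.14) did not pass either (edgeR adjusted p from 0.229 to 0.901). Rfc4 and Lig1 overlap the antisense genes Eif4a2 and 6330408A02Rik, whose reads may be shared with them.

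The genes of nucleotide supply and uracil removal were all higher in EC KO, and Tyms rose. Tyms (chromosome 5, 30058200 to 30073625) held 80.9, 71.1, 76.03, 79.3 and 73.4 CPM in Spred1 wt and 86.5, 92.7, 104, 99.5 and 78.9 in EC KO. Tyms ranged from 70.7 to 84.8 (median 76.6) in global KO, with 65.05, 71.5, 75.5, 81.8 and 82.5 in HSC wt and 78.9, 80.3, 80.8, 73.3 and 84.4 in HSC KO. The rise was 0.28 (SE 0.073, edgeR adjusted p = 0.0197) and did not pass without EC KO 3, EC KO 4, Spred1 wt 2 or Spred1 wt 5. Rrm2 held 137, 145, 182, 189.6 and 179 CPM in Spred1 wt and 188, 229, 226, 199 and 144 in EC KO. Rrm2 ranged from 124 to 180.1 (median 161) in global KO, with 115, 130.4, 192, 201 and 195 in HSC wt and 129.9, 194, 175, 192 and 227 in HSC KO. HSC wt 1 and 2, HSC KO 1 and EC KO 5 stood far below the rest of their groups, and the EC KO difference of 0.24 (SE 0.162) did not pass (edgeR adjusted p = 0.358). Rrm1, the large subunit of the same enzyme (0.23), and Ung (0.14) did not pass either (edgeR adjusted p = 0.107 and 0.312).

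Of the 4 chromatin and histone supply genes, Slbp rose in EC KO and the other 3 did not pass. Slbp (chromosome 5, 33634952 to 33652574) held 110.5, 113, 103, 108 and 104 CPM in Spred1 wt and 114, 134, 145, 142 and 123 in EC KO. Slbp ranged from 97.6 to 115 (median 106) in global KO, with 96.8, 98.03, 111, 106 and 117 in HSC wt and 109.9, 108, 108, 113 and 114 in HSC KO. All 5 EC KO libraries lay above all Spred1 wt libraries, and the rise was 0.29 (SE 0.065, edgeR adjusted p = 0.0069). Slbp and Tipin kept their calls in each of the 10 fits without 1 library. Uhrf1, which brings DNA methylation to newly copied strands, held 285, 293, 319.9, 279 and 257 CPM in Spred1 wt and 325, 361, 330.00, 317 and 280.1 in EC KO. Uhrf1 ranged from 268 to 338 (median 310.3) in global KO, with 267, 273, 312, 306 and 336 in HSC wt and 306, 319.9, 324, 298 and 331 in HSC KO. EC KO 1, 2 and 3 lay above all controls (0.17, edgeR adjusted p = 0.17). Chaf1a (0.04) and Chaf1b (0.10), subunits of the histone chaperone CAF-1, stayed near their controls (edgeR adjusted p = 0.741 and 0.469), and Chaf1a overlaps the antisense gene Ubxn6.

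Neither E2F factor passed in any pairwise comparison. E2f1, an activator, held 44.1, 43.3, 44.8, 45.00 and 44.5 CPM in Spred1 wt and 45.4, 48.6, 43.5, 46.9 and 52.01 in EC KO. E2f1 ranged from 39.2 to 55.6 (median 46.2) in global KO, with 44.8, 44.4, 46.3, 45.2 and 49.03 in HSC wt and 49.7, 46.9, 50.98, 52.5 and 51.6 in HSC KO. In HSC KO, 4 of 5 libraries lay above all HSC wt libraries, and the SD in Spred1 wt was 0.664 CPM. E2f8 held 110.3, 126, 130.01, 118 and 128 CPM in Spred1 wt and 123, 132, 128, 118 and 141 in EC KO. E2f8 ranged from 104 to 144 (median 129) in global KO, with 118, 118, 150.5, 139 and 125 in HSC wt and 170.1, 139, 136, 156 and 153 in HSC KO. Its highest libraries were HSC KO 1, 4 and 5, all above every HSC wt library, and its EC KO difference was 0.07 (edgeR adjusted p = 0.663).

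Genes with and without the letters of an E2F site were among those that rose in EC KO. Among the 9 members with an E2F match 1 rose (Mcm6) with a median log2 difference of 0.17, and among the 19 without a match 3 rose (Prim1, Slbp, Tyms) with the same median of 0.17. The other 2, Tipin and Gins1, are not in the promoter table.

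A list of 61 other replication genes gave a wider view. In EC KO 53 of them lay higher, 10 rose and 0 fell (beside 6 of 34 members and 3.49% of all genes), with a median log2 difference of 0.14. Of the 19 further genes of origin loading and firing, 4 rose: Orc6 (0.41, edgeR adjusted p = 0.00516) and Orc3 (0.28, 0.0464), both origin recognition subunits, Gmnn (0.43, 0.0279), the CDT1 inhibitor geminin, and Gins4 (0.25, 0.0487). Of the 23 further genes of polymerases, clamp loaders and lagging strand, 22 lay higher and 4 rose. Rfc3, a clamp loader subunit, rose by 0.62, more than any member, from 33.1 ± 2.39 to 50.9 ± 4.39 CPM (n = 5 each; edgeR's adjusted p was 3.2e-05), and Rpa2, of the single-strand binding protein RPA, by 0.38 (0.00801). Pole4 (0.30, 0.0222) and Rnaseh2a (0.29, 0.0267), of polymerase epsilon and RNase H2, rose as well. Among the genes of nucleotides, chromatin and checkpoint, Asf1a (0.32, 0.0306), a histone chaperone, rose. In global KO 49 of the 61 and in HSC KO 55 of the 61 lay higher (54.5% and 56.9% of all genes), and 0 passed in either.

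Genes on both sides of S phase were counted in the same way. Of 22 regulators of the G1 to S step, 14 lay higher in EC KO, where 53.5% of all genes did. Cdkn1a, the CDK inhibitor p21, fell from 49.4 ± 9.03 to 27.4 ± 5.13 CPM (n = 5 each, edgeR adjusted p = 0.0412). It was the 1 gene of the 22 that passed, beside 7.96% of all genes in either direction. In global KO 12 of the 22 lay higher (54.5% of all genes) and Ccnd1, cyclin D1, rose, where 0.0747% of all genes passed. In HSC KO 12 lay higher (56.9% of all genes) and 0 passed (0.0224% of all genes). Of 24 G2 and mitosis genes, 18 lay higher in EC KO and Cdk1, the mitotic kinase, rose by 0.35 (edgeR adjusted p = 0.0368). Cdk1 was the 1 gene of the 24 that passed, where 3.49% of all genes rose. In global KO only 6 of 24 lay higher (54.5% of all genes), with a median of -0.04. In HSC KO 24 of 24 did (56.9% of all genes), with a median of 0.11 and 0 called. The proliferation marker Mki67 stood at 1131 ± 74.5 CPM in Spred1 wt, 1119 ± 113 in global KO and 1036 ± 97.3 in EC KO, and did not pass in EC KO (-0.13, edgeR adjusted p = 0.35).

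The mean log2 CPM of the 34 members varied between libraries of the same group, and the 5 groups overlapped. It ranged from 6.79 to 6.93 in Spred1 wt, 6.76 to 7.05 in global KO, 6.77 to 7.04 in HSC wt, 6.90 to 7.08 in HSC KO and 6.87 to 7.19 in EC KO. In 4 groups 1 or 2 libraries were the lowest for most members. EC KO 5 was the lowest of its group in 24 of 34 members, HSC KO 1 in 22, global KO 3 in 21, HSC wt 1 in 20 and HSC wt 2 in 11. Spred1 wt had no such library, Spred1 wt 5 being the lowest in 12 members. The mean of the LSK and stem cell markers was highest of the group in EC KO 5 (5.97), HSC KO 1 (5.69) and HSC wt 1 (6.17), with HSC wt 2 next (5.97), while global KO 6 (6.10) stood above global KO 3 (5.89). Spred1 wt was mixed. Spred1 wt 5, lowest for the members (6.79), stood at the group median for these markers (5.65), below Spred1 wt 2 (6.00) and Spred1 wt 1 (5.99). Spred1 wt 4, lowest for the markers (5.34), was second highest for the members (6.87).

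**Figure D4:**
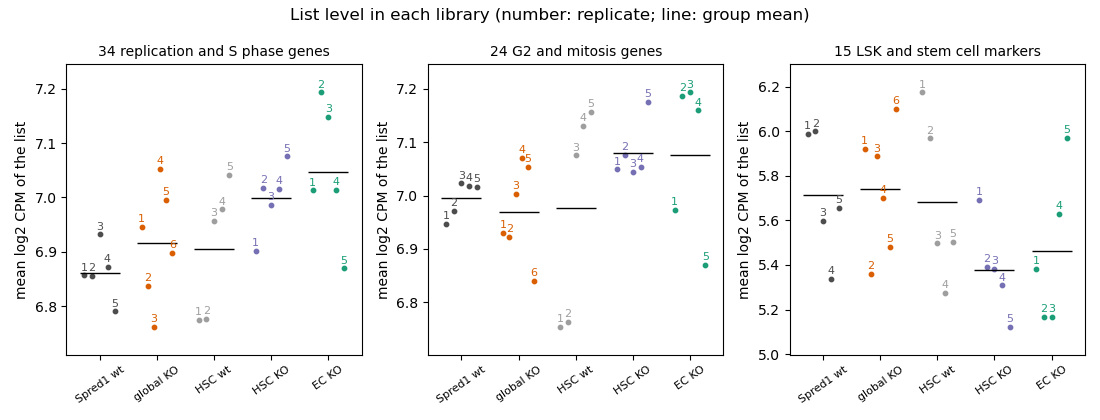
Mean log2 CPM of 3 gene lists in each of the 26 libraries, with the replicate number beside each point and the group mean as a line. The libraries lowest for the replication genes in EC KO (5), HSC KO (1) and HSC wt (1 and 2) are the highest of their groups for the LSK and stem cell markers, which does not hold in global KO or Spred1 wt.

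Within groups the members moved together from library to library. After the group means were removed, log2 CPM over the 26 libraries was compared with that of Mcm2, with permutation of libraries within groups (100000 draws, smallest possible p 1e-05) and adjustment over 72 genes. Of the other 33 members, 32 had a positive Pearson's r, 21 passed as positive and the median r was 0.63. Over all 13378 genes tested other than Mcm2, 6502 had a positive r. Their median was -0.02 and r ran from -0.92 to 0.96. How many of all genes would pass was not computed. The passing counts here and below therefore have no share over all genes beside them. Among the members, the most alike were Mcm3 (r = 0.963, rho = 0.97, permutation adjusted p = 8e-05 and 0.00012), Mcm5 (r = 0.93, rho = 0.91) and Rrm1 (r = 0.90, rho = 0.85), the latter 2 with the same adjusted p values. Without EC KO 5 and Spred1 wt 3, the 2 libraries farthest from the median of Mcm2, the r of Mcm3 was 0.95 and the members' median 0.60. In the 19 male libraries the median was 0.59. Mcm6 (r = 0.82), Gins1 (0.71), Tipin (0.63) and Tyms (0.52) passed, but Slbp (0.23, permutation adjusted p = 0.45) and Prim1 (0.15, 0.60) did not. The members with an E2F match in the window had a median r of 0.82 and those without one 0.56, given as a description. Those with a match include Mcm3, Mcm5, Mcm6 and Mcm7, ring partners of the reference Mcm2 (r = 0.82 to 0.963). The others were Cdt1 (0.86), Cdc6 (0.70), Orc1 (0.47), Pola1 (0.46) and Clspn (0.17). No other reference gene was used, so the 2 medians may rest on the choice of Mcm2.

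Cdc7 was the 1 member with a negative r (-0.54, permutation adjusted p = 0.031; rho = -0.38, 0.15). Its r was -0.39 without EC KO 5 and Spred1 wt 3, and -0.67 in the 19 male libraries. LSK and stem cell markers ran against Mcm2: 13 of 15 had a negative r, 8 passed and the median was -0.53. Meis1 (r = -0.68, rho = -0.72, permutation adjusted p = 0.002 and 0.0009), Mllt3 (-0.65, -0.66) and Mecom (-0.65, -0.64), transcription regulators of haematopoietic stem cells, were the lowest. The median of these 15 was -0.44 without the 2 libraries and -0.34 in the 19 male libraries. Kit (-0.02) and Ly6a (0.10), the genes of the sort, lay near 0. Of 24 G2 and mitosis genes 19 had a positive r, 13 passed, and the median was 0.49, with Cdc20 (0.76) and Ccnb1 (0.75) at the top and Cenpf (-0.42) and Mki67 (-0.19) below 0. The points share the scaling and depth of each library.

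**Figure D5:**
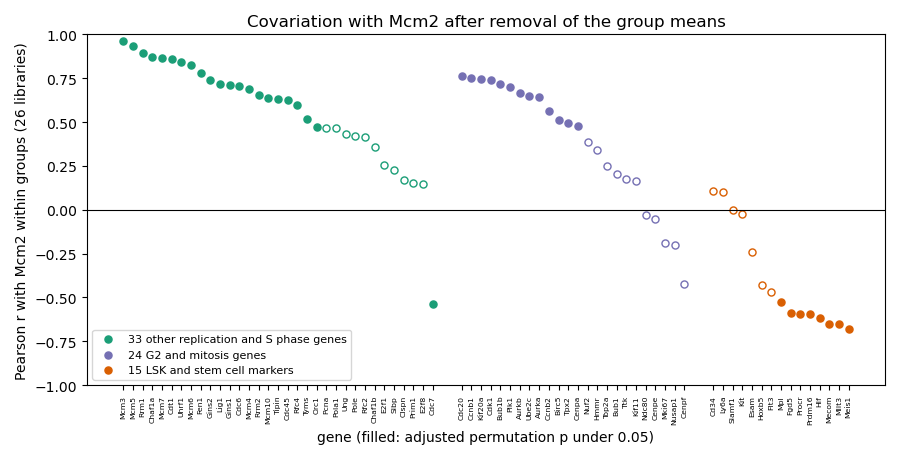
Pearson's r of each gene with Mcm2 over the 26 libraries after removal of the group means, for the 33 other replication and S phase genes, 24 G2 and mitosis genes and 15 LSK and stem cell markers, ordered by r. Filled points have an adjusted permutation p under 0.05. Of the replication genes 32 lie above 0 and Cdc7 at -0.54, while 13 of 15 LSK and stem cell markers lie below 0.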

How the data were processed

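Gene expression was measured by RNA-seq in 26 LSK libraries, which titles and genotype labels place in 5 groups. The authors deposited raw counts of reads per gene and library, as whole numbers with no normalization. The submitters' processing notes name STAR 2.6.0, HTSeq 0.6.0, bcl2fastq 2.18.0.12, edgeR 3.28.1 and build mm10. Which annotation and strand setting the counting used is not given in the sources used here. Every library has its column, and 0 pairs of columns held identical values.

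From these counts, genes were kept by filterByExpr (minimum count 10), which left 13379, and libraries were scaled by TMM (edgeR 4.0.16 in R 4.3.3). One model of the 5 group means was fitted to the 26 libraries together. It had 21 residual degrees of freedom, and the biological coefficient of variation was 0.205. Contrasts were tested by edgeR's quasi-likelihood F-test (robust, two-sided), with Benjamini-Hochberg adjustment over all genes and a threshold of 0.05. Log2 CPM used a prior count of 2. Totals of 14816100 to 26714300 counts gave each member at least 355 counts in every library. Intervals are at 95%. Covariation with Mcm2 used 100000 permutations within groups. Sex was read from Xist (female, 500 CPM or more) and from Y-linked transcripts (male, 20 CPM or more). Promoters of 28 members came from RefSeq tables on GRCm38.p6, and exons from GENCODE. Figures were drawn with matplotlib 3.10.9 (Python 3.11.15). The fit was tested on simulated data.

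The members, gene lists and comparisons were chosen with earlier results of these data known. Every library is given for the 6 MCM subunits, Cdc6, Cdt1, Pcna, Rrm2, Tyms, Uhrf1, E2f1, E2f8 and any member that passed. The text also names the 3 members of smallest p and the 3 of largest difference per comparison, passing genes of other lists, and Mki67. One gene of the other lists is counted there but not reported here. The remaining members are named by role with their EC KO difference, a choice made after the values were seen, and so are the extremes of covariation. Alternatives were RLE and upper-quartile scaling, no filter, a filter of 1 CPM in 5 libraries, limma voom with quality weights (limma 3.58.1), a sex covariate, the compared groups alone, DESeq2 1.42.0, other controls for EC KO and each library left out. Covariates of mast cell, macrophage and LSK markers, the split by gene length and the covariation with Mcm2 were added after the data were seen.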

Additional observations from a re-analysis of the deposited data

Results flagged for a closer look

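In 175 tests of a single library against the rest of its group of 5 or 6, 7 values (4%) stood apart, where chance gives about 1 in 20. Spred1 wt 3 stood high for Mcm3 at 448.7 CPM (the other 4 at 340.1 to 370.4) and for Rrm1 at 484 CPM (392 to 417). Spred1 wt 4 stood high for Gins1 at 31.6 CPM (28.5 to 29.2) and for Orc1 at 29.4 CPM (21.9 to 23.9). HSC KO 1 stood low for Mcm2 at 290.5 CPM (316 to 325) and for Mcm3 at 358 CPM (409 to 421), and HSC KO 5 stood high for Clspn at 118 CPM (107.5 to 109.8). Tested as an interaction of 4 groups by edgeR, 0 of the 34 members passed for a difference of the 2 knockout effects.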

How the results depend on the processing

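No paired analysis was possible because the labels give the groups no shared replicate numbers. The count of 0 members in global KO, HSC KO, HSC wt against Spred1 wt and the interaction held under all 11 other settings and all fits without 1 library. The members' median there moved by less than the 1 SD between replicates (0.099). That SD is larger in size than each of these 4 medians (0.07, 0.09, 0.05 and -0.02), so it cannot show that they were stable. Without 1 library the members' median ran from 0.036 to 0.101 in global KO, 0.054 to 0.118 in HSC KO, 0.111 to 0.217 in EC KO, 0.003 to 0.088 in HSC wt against Spred1 wt and -0.066 to 0.019 in the interaction. Under the other settings it ran from 0.059 to 0.117, 0.031 to 0.099, 0.121 to 0.256, 0.011 to 0.099 and -0.026 to 0.050, in the same order. In EC KO against Spred1 wt the 6 members became 12 with voom, 3 with a sex covariate, 0 with the compared groups alone and 13 with a mast cell covariate (2 to 10 without 1 library). All 1065 genes called there became 1824 with voom, 636 with a sex covariate, 333 with the compared groups alone, 2052 with the mean of Spred1 wt and HSC wt as control, 2581 with a mast cell covariate and 1717 with an LSK covariate (483 to 1880 without 1 library). For any difference among 5 groups, the 4 members became 2 without the filter, with a sex covariate and with a macrophage covariate (1 to 7 without 1 library), and the 1131 genes became 1732 with voom, 2085 with a mast cell and 2189 with an LSK covariate (579 to 1456). In global KO the 10 genes became 4 with the compared groups alone, 35 with DESeq2, 19 with a mast cell and 16 with an LSK covariate (8 to 25). In HSC KO the 3 genes became 5 with DESeq2 and 5 with a mast cell covariate (3 to 3). In HSC wt against Spred1 wt the 4 genes became 18 with voom, 1 with the compared groups alone, 32 with DESeq2, 74 with a mast cell, 10 with a macrophage and 13 with an LSK covariate (1 to 21). In the interaction the 2 genes became 5 with voom and 7 with DESeq2 (2 to 7). The interaction of Rrm2 reversed from -0.23 to 0.033 with an LSK covariate. The cause was not tested in these cases, except that leaving out a group or library removes samples. Each member had 355 or more counts in every library, and counting error was not measured apart from replicate spread. Where that spread was smallest, counting error may be as large. Examples are E2f1 and Gins1 in Spred1 wt (44.3 ± 0.664 and 29.4 ± 1.23 CPM, n = 5 each).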
